A study of Mus musculus with 4 samples.

Results

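The Schlafens are a family of growth-regulating and antiviral genes, and the 7 mouse members described here are Slfn1, Slfn2, Slfn3, Slfn4, Slfn5, Slfn8 and Slfn9. They were taken by name: a member is a probe set of the array whose annotation lists that gene symbol alone. Each of the 7 had 1 such row, as 19752 genes on the array did, and none shared a row with another symbol. RNA came from CD4+ T cells of the spleen of male C57BL/6 mice aged 6 weeks, a common inbred strain, purified by removing other cells and stimulated for 48 h by beads carrying CD3 and CD28 antibodies. The baseline cells (2 arrays) received no cytokine, and the treated cells received interferon alpha (IFNa) at 100 U/ml for 2 h (1 array) or 8 h (1 array). All 4 arrays therefore hold bead-activated cells, and cells cultured equally long without IFNa were not analysed here, so the effects of IFNa and of time in culture cannot be told apart. The labels do not say whether separate mice or cultures gave the baseline samples, and the preparation label of the treated samples also mentions JAK inhibitors as present or absent.

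Schlafen proteins are grouped by size. The short class (Slfn1 and Slfn2) holds little beyond the core domain shared by the whole family, the intermediate class (Slfn3 and Slfn4) adds a linker domain, and the long class (Slfn5, Slfn8 and Slfn9) carries in addition a region related to RNA and DNA helicases. Members of the family bind or cut transfer RNA, restrict viral protein synthesis and restrain the growth of lymphocytes, and many are induced by type I interferon, which signals through the receptor chains Ifnar1 and Ifnar2 to the transcription factors Stat2 and Irf9. Irf9 binds DNA at the interferon-stimulated response element. In T cells the family is best known for Slfn2, whose loss makes resting cells leave quiescence and die.

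In the RefSeq gene table of GRCm38.p6, used here for names, gene order and sequence, the members form 1 cluster on chromosome 11. The order is Slfn5, Slfn9, Slfn8, Slfn10-ps, Slfn2, Slfn1, Slfn4, Slfn3 and Slfn14. Of the 7 members, the long ones lie side by side and the short and intermediate ones follow. Slfn14, which is not a member here and was not classed by size, stands at the far end. A RefSeq promoter window, from 250 bases before to 50 bases from the start site, was found for 7 of 7 members. The windows were searched on both strands for the core of the interferon-stimulated response element, taken as GAAA, any 2 bases and GAAA again. It was found in 3 of 3 long members, in 0 of 2 short members and in 0 of 2 intermediate members. Of all genes with a window, 1079 of 27025, or 3.99%, hold it, and of all windows 1131 of 32851, or 3.44%. The windows of the long members are shown because they carry that match, which is in capitals, each 5′ to 3′ on the strand of its gene. That of Slfn5 is chr11:82951852-82952151 on the plus strand, that of Slfn8 chr11:83020761-83021060 on the minus strand and that of Slfn9 chr11:82991781-82992080 on the minus strand.
Slfn5: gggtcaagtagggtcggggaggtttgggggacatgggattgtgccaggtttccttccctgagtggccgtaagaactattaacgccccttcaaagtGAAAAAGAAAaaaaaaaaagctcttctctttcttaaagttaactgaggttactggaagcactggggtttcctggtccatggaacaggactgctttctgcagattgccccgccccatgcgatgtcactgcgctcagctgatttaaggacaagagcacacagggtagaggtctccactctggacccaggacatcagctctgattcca
Slfn8: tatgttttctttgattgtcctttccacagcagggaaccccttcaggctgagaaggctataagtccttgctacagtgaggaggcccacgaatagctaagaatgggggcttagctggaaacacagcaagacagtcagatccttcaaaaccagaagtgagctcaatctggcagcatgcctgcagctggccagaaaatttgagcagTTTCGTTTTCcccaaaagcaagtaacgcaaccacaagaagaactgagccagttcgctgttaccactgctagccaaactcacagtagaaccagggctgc
Slfn9: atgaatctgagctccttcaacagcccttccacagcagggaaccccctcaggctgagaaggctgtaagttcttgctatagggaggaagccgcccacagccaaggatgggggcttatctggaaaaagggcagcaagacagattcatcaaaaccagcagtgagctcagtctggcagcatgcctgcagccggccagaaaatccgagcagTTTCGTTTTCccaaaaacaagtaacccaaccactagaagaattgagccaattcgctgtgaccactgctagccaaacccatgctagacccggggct

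The match in Slfn5 reads along the gene's strand, from -155 to -146 relative to the start site. In Slfn8 and Slfn9 the element lies on the opposite strand and the same letters, TTTCGTTTTC, stand at -48 to -39 and at -45 to -36. Over the 300 bases of the window Slfn8 and Slfn9 were 82% identical in a global alignment, while every other pair of members lay between 39.3% and 48.3%. Slfn8 has another listed start site nearby, and the window of that start holds the same match at -136 to -127. No window of a member held the interferon gamma activated site TTCNNNGAA, which 8.30% of all windows hold.

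The short and intermediate members share another stretch. Their longest common run of letters, ACTTCCTGG, was looked for after the sequences were seen and is therefore a description only. By this definition it stood on the gene's strand in 2 of 2 short and 2 of 2 intermediate members, a count fixed in advance. It was in 0 of 3 long members. Of all windows 0.843% hold it, a share that the fixed count cannot be weighed against. The stretches around it are shown to compare the flanks, with the motif in capitals. They are chr11:83116730-83116770 for Slfn1, chr11:83065041-83065081 for Slfn2, chr11:83191272-83191312 for Slfn3 and chr11:83175097-83175137 for Slfn4, all on the plus strand.
Slfn1: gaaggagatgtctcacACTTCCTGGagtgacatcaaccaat
Slfn2: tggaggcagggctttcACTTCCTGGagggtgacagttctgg
Slfn3: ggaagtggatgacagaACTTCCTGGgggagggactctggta
Slfn4: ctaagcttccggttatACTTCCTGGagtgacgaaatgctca
The motif began at -74 in Slfn1, -55 in Slfn2, -42 in Slfn3 and -73 in Slfn4. A match of letters is not a binding site, and the lack of one says nothing about a factor outside these 300 bases.

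**Figure D1:**
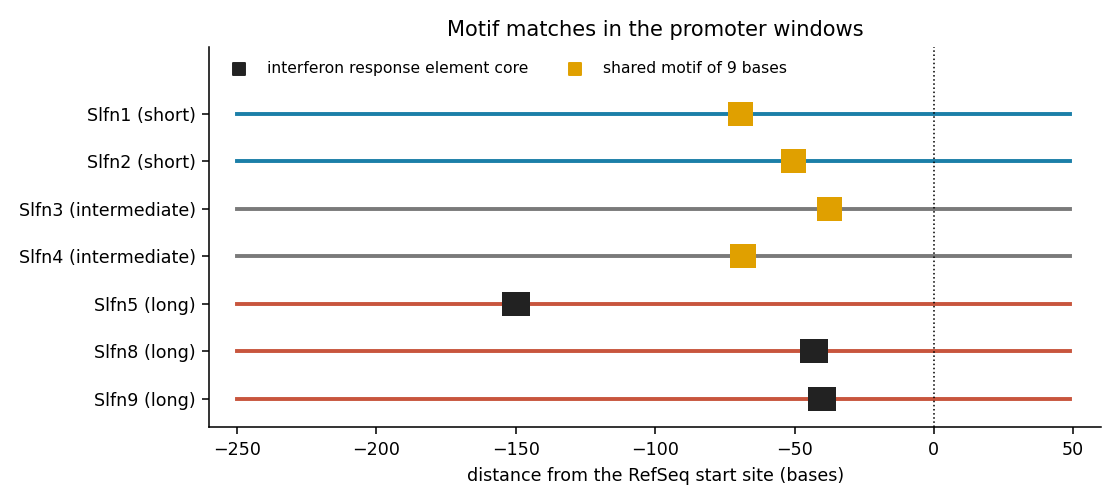
Promoter windows of the 7 members drawn to scale, with the distance from the RefSeq start site in bases on the horizontal axis and 1 line per gene, coloured by size class. Black blocks mark the core of the interferon-stimulated response element, found in the long members Slfn5, Slfn8 and Slfn9, and yellow blocks the motif of 9 bases shared by Slfn1, Slfn2, Slfn3 and Slfn4.

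The arrays of both IFNa times lay above both baseline arrays for 7 of 7 members, a position that 7.12% of the 19752 genes with a row took. Differences were tested with limma, which moderates the spread of each gene by that of all genes, over the 10699 genes that exceeded an array's median intensity at least on 1 of the 4 arrays. Of the members 6 were tested, and Slfn4 was too dim. At an adjusted p under 0.05 over all genes tested, 2 of the 6 rose at 2 h (Slfn5 and Slfn8), where 1.09% of all genes tested rose. At 8 h 3 of the 6 rose (Slfn1, Slfn5 and Slfn8), where 0.654% of all genes tested rose. The 7 members had median log2 differences of 0.69 (2 h) and 0.80 (8 h), where all genes tested had 0.06 and -0.16. The member medians include the dim Slfn4, whose own value is the 8 h median, while the genes tested leave dim genes out. With no filter on dim rows the medians of all genes were -0.07 and 0.04. The comparisons with baseline share the same baseline arrays, so their values are given side by side and not as support for each other.

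All p-values rest on the spread between the 2 baseline arrays, which may be technical, and each lone IFNa array was assumed to vary like them. The arrays did not share 1 distribution. Quantile normalization moved the median difference of all tested genes from -0.16 to 0.00 at 8 h and turned the calls from 70 higher and 358 lower into 663 higher and 900 lower. At 2 h it turned 117 higher and 1 lower into 332 higher and 109 lower, and between the IFNa times 156 higher and 1155 lower into 990 higher and 1316 lower. Centring each array on its median moved the medians of all tested genes to 0.15 at 2 h and -0.24 at 8 h. Of the CD4 T cell markers 9 of 9 with a row lay above the median on every array, and their summed intensity was 33566 and 38627 in the baseline cells, 38388 after 2 h and 40990 after 8 h. Of 34 markers of other cell types with a row 13 were tested, and limma called none at either time (1 and 2 at an unadjusted p under 0.05). Of the 5 B cell markers with a row 4 lay above the median on every array, with summed intensities of 2324 and 2326 in the baseline cells, 2257 after 2 h and 2948 after 8 h. Fewer cells of a type and less RNA per cell cannot be told apart in such bulk samples.

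**Figure D2:**
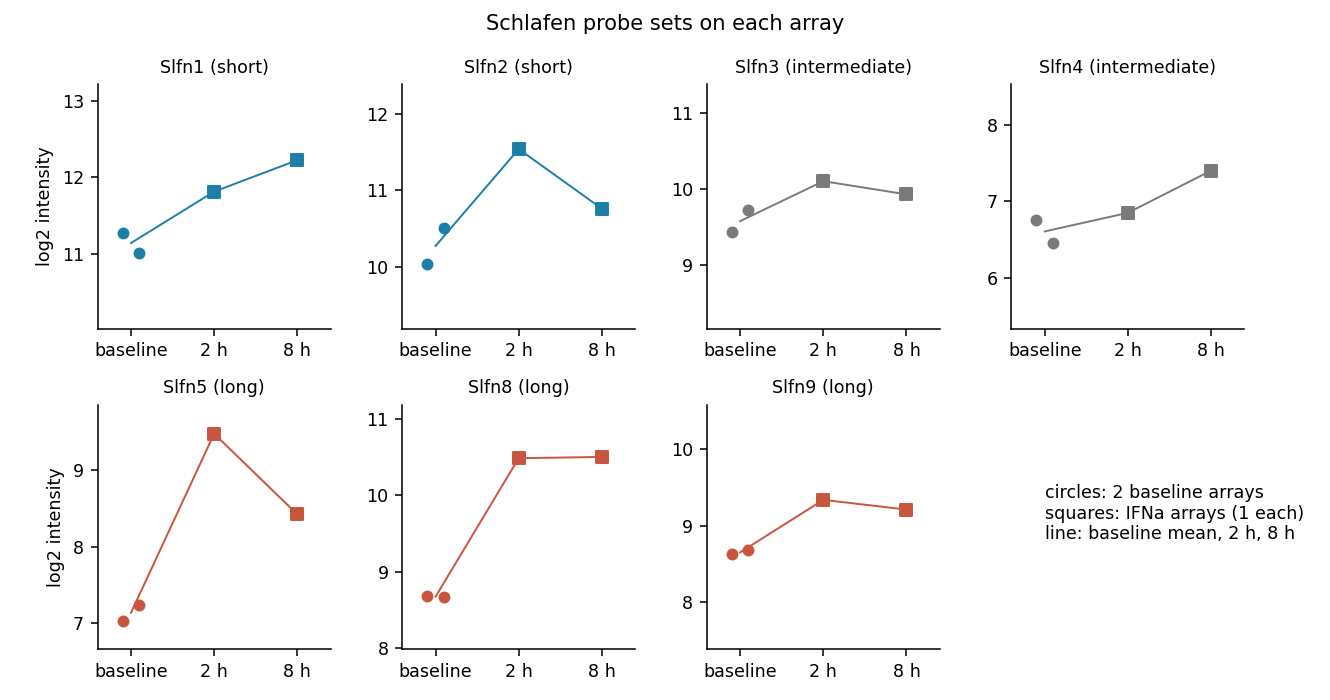
Log2 intensity (vertical axis, the same span of log2 units in each panel) of each Schlafen probe set on each array. Circles are the 2 baseline arrays, squares the single arrays at 2 h and 8 h of IFNa, and the line joins the baseline mean with the IFNa arrays; every square lies above both circles, Slfn5 and Slfn2 are highest at 2 h, Slfn1 and Slfn4 at 8 h, and Slfn8 is level between 2 h and 8 h.

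Among the long members Slfn5, a nuclear protein linked to transcriptional control of interferon responses, had the largest rise of the family at 2 h. Its intensity read 131 on one baseline array and 151 on the other, then 714 at 2 h and 343 at 8 h. The IFNa arrays lay well apart from the baseline arrays, and the 2 h array was the highest. The rise was 5.09-fold at 2 h (log2 difference 2.35, SE 0.21, 1 array against 2, limma adjusted p = 0.00131) and 2.45-fold at 8 h (1.29, SE 0.21, adjusted p = 0.0194). Between the IFNa times Slfn5 fell by 1.06 on the log2 scale (SE 0.24, adjusted p = 0.0329), a fall that 10.8% of all genes tested passed in that direction. With no filter on dim rows this last call ended (adjusted p = 0.0680), while the rises at 2 h and 8 h passed under all 7 alternatives that gave a test. By size Slfn5 was the 17th highest of 10699 genes at 2 h and the 39th at 8 h. Its log2 level at baseline, 7.13 ± 0.14 (SD, n = 2), lay under the medians of those arrays (7.61 and 7.52), so it entered the test through the IFNa arrays, and its fold rests on a dim baseline.

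Slfn8, a long Schlafen of the same block of the cluster, had nearly equal deposited values at both times. Its intensity was 411 and 405 in baseline cells, 1436 after 2 h and 1452 after 8 h, with both IFNa arrays far above a baseline pair that nearly coincided. It rose 3.52-fold at 2 h (log2 difference 1.81, SE 0.20, adjusted p = 0.00433) and 3.56-fold at 8 h (1.83, SE 0.20, adjusted p = 0.00339). The difference between the IFNa times was 0.02, with a 95% interval of the limma model from -0.51 to 0.55. It was 0.32 after quantile normalization and -0.16 with centred arrays. Slfn8 passed under all 7 tested alternatives at each time, with differences between 1.70 and 1.91 at 2 h and between 1.75 and 2.01 at 8 h. It was the 37th highest of all tested genes at 2 h and the 24th at 8 h.

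Slfn9, the neighbour of Slfn8 in the cluster and nearest to it in promoter sequence, gave smaller values. Its intensity was 394 and 409 in baseline cells, 647 after 2 h and 592 after 8 h. The groups did not overlap, but the differences of 0.69 (SE 0.20, adjusted p = 0.225) and 0.56 (SE 0.20, adjusted p = 0.145) did not pass. After quantile normalization Slfn9 passed at 8 h (0.84, adjusted p = 0.00420). The 95% intervals ran from 0.23 to 1.15 at 2 h and from 0.10 to 1.02 at 8 h, under the lower ends of 1.36 and 1.37 for Slfn8. The difference between the genes was not tested. Whether probes of such close copies hybridise to each other's transcripts was not tested either.

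Of the short members Slfn2, the quiescence factor that also protects transfer RNA from cleavage, had the larger value at 2 h. Its intensity was 1047 and 1455 in baseline cells, 2977 after 2 h and 1732 after 8 h. The 2 h array stood out, while the 8 h array lay only 0.25 log2 units above the higher baseline array, and the baseline arrays themselves differed by 0.47. The 2 h difference of 1.27 (SE 0.25, adjusted p = 0.0582) lay just outside the threshold, and the 8 h difference was 0.49 (SE 0.25, adjusted p = 0.255), or 0.25 without baseline replicate 1 and 0.73 without baseline replicate 2. At 2 h Slfn2 passed under 4 of 7 alternatives, among them quantile normalization (1.17, adjusted p = 0.000330) and centred arrays (1.37, adjusted p = 0.000281). At 8 h it passed after quantile normalization (0.64, adjusted p = 0.0377). Between the IFNa times it differed by -0.78 (SE 0.28, adjusted p = 0.0905), with a 95% interval from -1.43 to -0.13. That difference passed under 1 of 7 alternatives, centred arrays (-0.96, adjusted p = 0.0255). After quantile normalization it was -0.53 and did not pass. The median of all tested genes between these times was -0.25, or -0.43 with centred arrays and 0.00 after quantile normalization.

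Slfn1, the other short member, which restrains thymocyte and T cell growth, was highest at 8 h. Its intensity was 2465 and 2058 in baseline cells, 3592 after 2 h and 4780 after 8 h, and neither IFNa array overlapped the baseline pair. The 2 h difference was 0.67 (SE 0.22, adjusted p = 0.274). At 8 h Slfn1 rose 2.12-fold (log2 difference 1.09, SE 0.22, adjusted p = 0.0357), the 51st highest of all tested genes. That call ended with no filter on dim rows (adjusted p = 0.0777) and passed under the other 6 of 7 alternatives. The step from 2 h to 8 h was 0.41 (SE 0.25, adjusted p = 0.260), with a 95% interval from -0.16 to 0.98, so the order of the IFNa times was not resolved for Slfn1.

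The intermediate members had the smallest values at 2 h. Slfn3, reported as a growth regulator in T cells and gut epithelium, had intensities of 693 and 844 in baseline cells, 1099 after 2 h and 975 after 8 h. It differed from baseline by 0.52 at 2 h (SE 0.22, adjusted p = 0.395) and by 0.35 at 8 h (SE 0.22, adjusted p = 0.344), the latter 0.21 without baseline replicate 1. The groups did not overlap, yet neither difference passed except at 8 h after quantile normalization (0.60, adjusted p = 0.0455). Slfn4, best known from monocytes and macrophages, lay below the median of every array, with intensities of 108 and 88.1 in baseline cells, 115 after 2 h and 169 after 8 h. Its differences of 0.24 at 2 h and 0.80 at 8 h were not tested, and with no filter on dim rows they gave adjusted p = 0.780 and 0.164. Without baseline replicate 1 the 2 h value was 0.39 and without baseline replicate 2 it was 0.10. The 8 h array was the highest. The 8 monocyte and macrophage markers summed to 1391 and 1178 in baseline cells, 1051 after 2 h and 1246 after 8 h. They did not move alike. At 8 h Lyz2 and Cd68 stood at -0.46 and -0.39 from baseline, and all others of the list between 0.11 and 0.39. Of the 8 markers 3 were bright enough to test. Their part in the Slfn4 values was not tested.

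**Figure D3:**
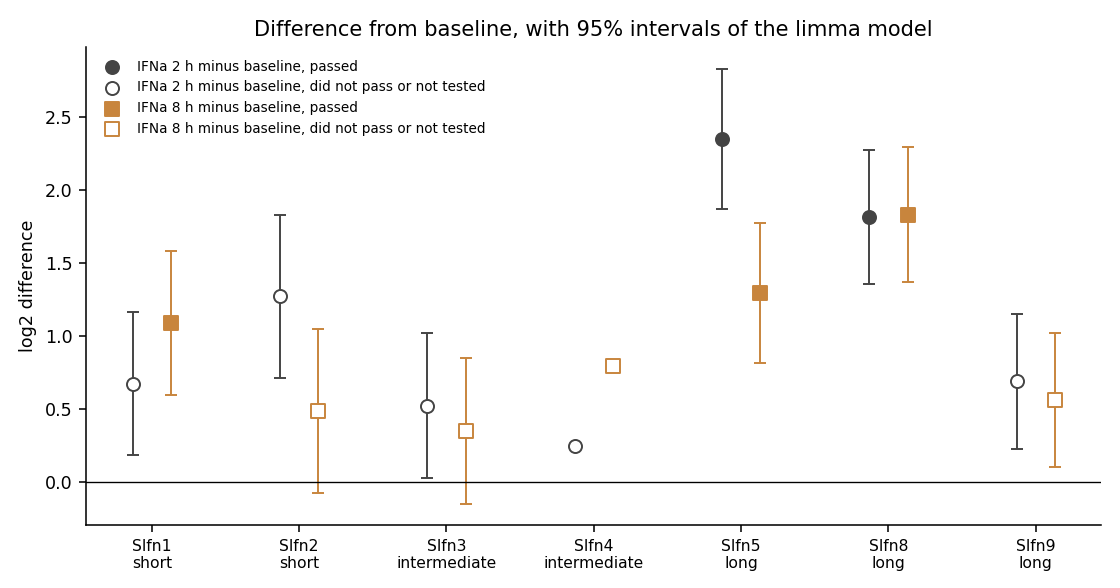
Log2 difference from baseline (vertical axis) of each member at 2 h (circles) and 8 h (squares) of IFNa, 1 array against 2, with 95% intervals of the limma model; filled symbols passed at an adjusted p under 0.05 over all genes tested. Filled symbols stand for Slfn5 and Slfn8 at both times and for Slfn1 at 8 h, and Slfn4 has no interval because it was not tested.

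Set side by side by size, the 3 long members had a median log2 difference of 1.81 at 2 h and 1.29 at 8 h, the 2 short members 0.97 and 0.79, and the 2 intermediate members 0.38 and 0.57. The median of the long members exceeded that of the short ones by 0.84 at 2 h and by 0.50 at 8 h. With Slfn3 and Slfn4 counted as short these gaps were 1.22 and 0.65. The classes overlapped, since the short Slfn2 at 2 h (1.27) and the short Slfn1 at 8 h (1.09) lay above the long Slfn9 (0.69 and 0.56). Members are not replicates of a class, and the gap has no test. Members of 1 class also differed in how they stood between the IFNa times, which was not tested. From 2 h to 8 h Slfn5 (long) fell, Slfn2 (short) had the value closest to that fall at -0.78, Slfn8 and Slfn9 (both long) stood at 0.02 and -0.13, and Slfn1 (short) at 0.41. The median of all tested genes was -0.25. After quantile normalization, where that median was 0.00, Slfn5 stood at -0.70 and Slfn2 at -0.53. Slfn8, Slfn9 and Slfn1 then stood at 0.32, 0.29 and 0.57.

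**Figure D4:**
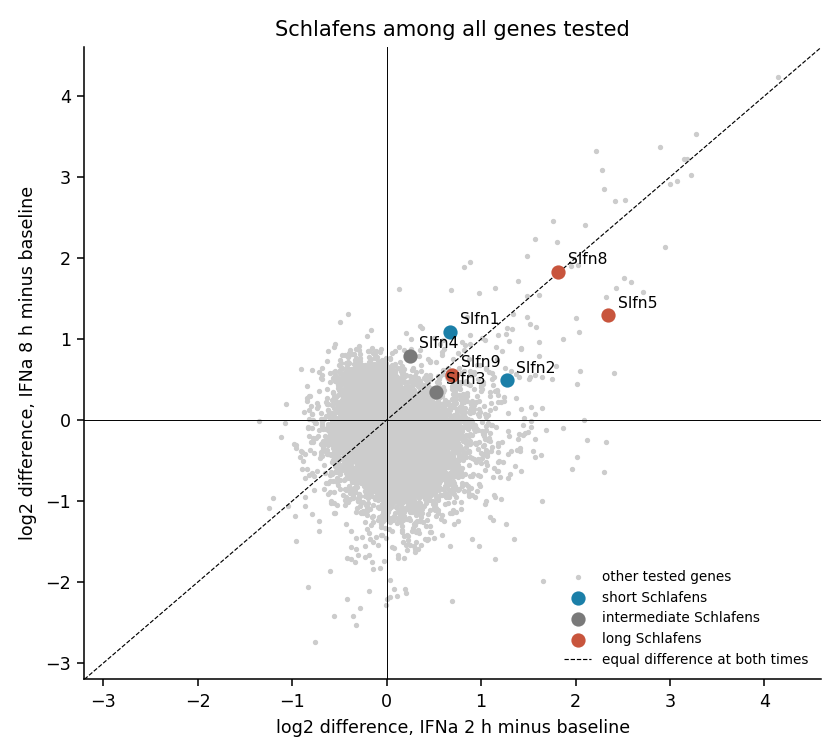
Log2 difference from baseline at 2 h (horizontal axis) and at 8 h (vertical axis) of IFNa for the 10699 genes tested (grey) and the 7 Schlafens, coloured by size class; Slfn4 was not tested. Both axes use the same 2 baseline arrays; Slfn5 and Slfn2 lie to the right of the dashed line of equal differences, Slfn8 on it, and Slfn1 and Slfn4 above it.

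Genes with the most similar pattern were found by the distance from each member in the plane of the 2 h and 8 h log2 differences, over 3 groups on 4 arrays. Nearest to Slfn5 were Eif2ak2, the antiviral kinase PKR (2.33 and 1.52, distance 0.23), the RNA sensor Ifih1 (2.43 and 1.63) and the ADP-ribosyltransferase Parp14 (2.00 and 1.26). Nearest to Slfn8 were the helicase Ddx60 (1.96 and 1.90, distance 0.16), the large ubiquitin ligase Rnf213 (2.03 and 1.92) and Sdc3 (1.61 and 1.55). Slfn9 lay by the nucleic acid sensor Zbp1 (0.64 and 0.60, distance 0.06), Tsc22d3 and the helicase Mov10. Slfn1 lay by the chemokine Ccl5 (0.59 and 0.99, distance 0.13), Oasl1 and Anxa2. The values of Slfn2 were closest to Mir15b (1.37 and 0.57, distance 0.13), Tmem184b and Ogfr, and those of Slfn3 to Apobec1 (0.54 and 0.37, distance 0.03), Ptpn22 and Sdcbp. Genes crowd near the small values, so a short distance means less for Slfn3 and Slfn9 than for Slfn5 and Slfn8.

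Other genes of the family and of the cluster gave no call. Slfn10-ps, listed between Slfn8 and Slfn2 as a miscellaneous RNA, carries the symbol of a pseudogene. Its intensities were 413 and 395 in baseline cells, 690 after 2 h and 482 after 8 h. Its difference was 0.77 at 2 h (SE 0.20, adjusted p = 0.170) and 0.25 at 8 h (SE 0.20, adjusted p = 0.459). Slfnl1, a Schlafen-like gene outside the cluster, stood at -0.16 and 0.43 (adjusted p = 0.766 and 0.239). Slfn14 and Slfn1l had no row of their own. Slfn5os, an RNA listed on the strand opposite Slfn5 and looked up after the member values were seen, was under the median on every array. Its intensities were 95.4 and 74.8 in baseline cells, 153 after 2 h and 96.9 after 8 h, and its difference of 0.86 at 2 h was not tested. At 2 h Slfn10-ps and Slfn5os thus stood above Slfn1, Slfn3, Slfn4 and Slfn9 and below Slfn2, Slfn5 and Slfn8.

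The genes that flank the cluster had smaller values than its called members. Of the 5 protein-coding genes on each side, 9 of 10 had a row and 5 were tested. Their log2 differences ran from -0.19 to 0.23 at 2 h and from -0.19 to 0.47 at 8 h, and limma called none at either time (0 and 1 at an unadjusted p under 0.05). The largest of those tested at 2 h were Nle1, a ribosome assembly factor (0.23, adjusted p = 0.667), and Rasl10b (-0.19, adjusted p = 0.723), and at 8 h Rasl10b (0.47, adjusted p = 0.199) and Rffl (-0.19, adjusted p = 0.581). Of the 4 flanking genes that were too dim to test, 1700020L24Rik (-0.36) and Fndc8 (-0.33) lay lowest at 2 h and Gas2l2 (0.46) highest at 8 h. The 6 tested Schlafens between these genes ran from 0.52 to 2.35 at 2 h and from 0.35 to 1.83 at 8 h.

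Genes of the type I interferon receptor, its signalling and its feedback were read from a list of 17, of which 15 were tested. At 2 h 3 of the 15 rose and none fell, with a median of 0.23 against 0.06 over all genes tested. They were Usp18, which restrains the receptor (3.22, SE 0.22, adjusted p = 0.000459), Irf7, a factor that sustains the interferon response (3.15, SE 0.25, adjusted p = 0.000902), and Stat2 (1.42, SE 0.23, adjusted p = 0.0261). At 8 h 3 rose and 1 fell, with a median of 0.08 against -0.16. Usp18 (3.02) and Irf7 (3.23) rose again. Irf9 rose by 0.99 (SE 0.20, adjusted p = 0.0388), after a similar value of 1.04 at 2 h that did not pass (adjusted p = 0.0613), while Stat2 stood at 0.88 (adjusted p = 0.0725). The inhibitor Socs1 fell by 1.05 on the log2 scale (SE 0.23, adjusted p = 0.0452), where 3.35% of all genes tested fell. Among the long Schlafens Slfn5 and Slfn8 had larger values than Stat2 at 2 h (2.35 and 1.81 against 1.42), a difference that was not tested.

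Genes of transfer RNA handling and translation control, the processes Schlafen proteins act on, were read from a list of 10, of which 9 were tested. Of these 1 rose, Eif2ak2, at 2 h (2.33, SE 0.20, adjusted p = 0.00118) and at 8 h (1.52, SE 0.20, adjusted p = 0.00824), beside 1.09% and 0.654% of all genes tested. The amino acid sensing kinase Eif2ak4 fell by 1.00 on the log2 scale at 8 h (SE 0.20, adjusted p = 0.0366), beside 3.35% of all genes tested. The list median was 0.26 at 2 h and -0.45 at 8 h, and that of all genes tested 0.06 and -0.16. Of 15 quiescence genes, the setting in which Slfn2 is known, 13 were tested and limma called none at 2 h (2 at an unadjusted p under 0.05), where the largest values were Klf2 at 0.77 (adjusted p = 0.257) and S1pr1 at 0.59 (adjusted p = 0.319). At 8 h 1 of the 13 fell, the survival factor Bcl2, by 1.12 (SE 0.20, adjusted p = 0.0258), beside 3.35% of all genes tested. Limma called no gene of the list higher. The largest positive value at 8 h was Il7r at 0.68 (adjusted p = 0.0977). Of the 13 tested, 4 had an unadjusted limma p under 0.05 at 8 h, Bcl2 among them. The medians of the quiescence list were 0.25 and 0.06, beside the same 0.06 and -0.16.

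The sequence match can be set beside the calls over the whole array. Of the genes that rose at 2 h, 83 of 117 had a promoter window and 27 of these, or 32.5%, held the response element core, against 3.61% of the 8607 tested genes with a window. At 8 h it was 21 of 53, or 39.6%. Slfn5 and Slfn8 are in both groups and Slfn9, which holds the core as well, is in neither. Slfn1 rose at 8 h with no match in its window. The motif shared by the short and intermediate members was held by 2 of the 83 genes at 2 h, or 2.41%. At 8 h 2 of the 53 held it, or 3.77%, beside 1.08% of the tested genes with a window. Slfn1, whose window helped to define the motif, is itself among the carriers at 8 h. The 8 h share is therefore partly built in and is a description only.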

How the data were processed

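Affymetrix whole-transcript mouse arrays were used for 4 RNA samples. The intensity values deposited by the authors are linear. RMA and Affymetrix Power Tools made them, as the submitters' processing notes record, and the sources used here do not say which arrays were normalized jointly. RMA keeps some unspecific signal, so folds of dim genes are understated. Log2 was taken with no pseudocount. Of 24922 rows, 21425 carried 1 gene symbol in the platform annotation, and a gene with several rows was represented by the one with the highest mean. Genes that exceeded an array's median at least on 1 of the 4 arrays were tested, 10699 in all.

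Limma 3.58.1 in R 4.3.3 fitted a mean for each of the 3 groups, with empirical Bayes moderation (1 residual degree of freedom, prior of 7.46) and two-sided p-values adjusted by Benjamini-Hochberg over all genes tested. Standard errors and 95% intervals are those of this model. The number of arrays limits the precision. Scripts were tested on simulated data. There 49.3% of 2-fold changes were called at 2 h and 38.8% at 8 h, and 100% and 98.5% of 4-fold changes. False calls made up 6.21% and 7.60% of the calls there. Their share among the calls on the real arrays, whose distributions differed, was not tested. A difference of 2-fold or less that did not pass is therefore not a sign of no change. Promoter windows came from a RefSeq table of GRCm38.p6, and alignments from Biopython 1.88 (percent of the 300 bases). No protein sequences were used, and the size classes are background knowledge. A planned comparison of protein lengths was not run.

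The members and gene lists were chosen with earlier results of these data known. Genes were named by rule: every member; from each list up to 4 called genes with the largest change, or the 2 largest where none was called; the flanking genes called or with the largest change; and the 3 nearest genes to each tested member, predicted genes left out. Settings tried in addition were quantile normalization, arrays centred on their medians, no filter, a filter at the 60th percentile, 32 added before log2, an intensity trend, the mean of a gene's rows, an adjusted p under 0.1, other size classes and each baseline array left out.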

Additional observations from a re-analysis of the deposited data

How the results depend on the processing

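The calls of Slfn5 and Slfn8 against baseline held under all 7 alternatives that gave a test, and no member's called difference changed sign under any alternative. Some differences between the IFNa times that were not called did change sign. Those of Slfn3 and Slfn9 became 0.21 and 0.29 after quantile normalization, and that of Slfn8 became -0.16 with centred arrays. The count of called members at 2 h was 2 and became 3 under 5 of 8 settings: quantile normalization, centred arrays, 32 added before log2, an intensity trend and an adjusted p under 0.1. At 8 h it moved from 3 to 6 after quantile normalization and to 2 with no filter. Beside this, all genes called higher at 8 h went from 70 to 663 of 10699 after quantile normalization. With no filter they numbered 42 of 19752. Between the IFNa times the count of called members moved from 1 to 2 with centred arrays or an adjusted p under 0.1. It moved to 0 there with no filter. The tested members at an unadjusted limma p under 0.05 between the IFNa times numbered 2. The gap between long and short medians moved from 0.84 to 1.22 at 2 h with the intermediate members counted as short, and from 0.50 at 8 h to 0.60 after quantile normalization, 0.35 with 32 added before log2 and 0.65 with the intermediate members counted as short. Between the IFNa times it was 0.06, 0.27 after quantile normalization and -0.25 with the intermediate members counted as short. Without 1 baseline array in turn, a value with no test, the gap ranged from 0.78 to 0.91 at 2 h and from 0.46 to 0.55 at 8 h. Genes called numbered 118 at 2 h, 428 at 8 h and 1311 between the times. Under quantile normalization these became 441, 1563 and 2306, with centred arrays 298, 794 and 2387, and at an adjusted p under 0.1 188, 1031 and 2999. With no filter 143 were called at 8 h and 415 between the times, and with a filter at the 60th percentile 255 at 8 h. The causes were not tested. No paired analysis was possible because the groups share only 1 replicate number.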
